A study of Danio rerio with 2 samples.

Results

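The cells described here were the valve interstitial-like cells (VIC-like cells) of the zebrafish heart at 72 h post-fertilization (hpf). They were picked from single-cell RNA sequencing counts as the cells with at least 1 unique molecular identifier (UMI, a tag that marks 1 captured transcript) of *postnb* (ENSDARG00000104267), a periostin gene, and at least 5 UMIs of *col1a2* (ENSDARG00000020007), a type I collagen chain. The rule took 235 of the 4125 cells of the 72 hpf library, or 5.70% (exact binomial 95% interval 5.01 to 6.45%), and 6790 cells were measured in the whole series. Hearts were dissected by hand from larvae carrying the reporter Tg(kdrl:nls-mCherry) together with a GFP reporter, Tg(cd41:GFP), that marks blood progenitors and thrombocytes, and living mCherry+ cells, with or without GFP, were sorted. Nuclear mCherry was driven by the promoter of *kdrl*, a VEGF receptor gene of endothelial cells, so the share above is a share of mCherry+ cells, and not of all heart cells. The larvae received no other treatment, hearts were pooled, and each age, 48 hpf and 72 hpf, has a single library. No comparison therefore has a replicate, no test was run, and every interval covers counting error only.

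Heart valves are leaflets of extracellular matrix wrapped in endocardium. In the embryo, endocardial cells (EdCs) at the valve site lose endothelial features and move into the matrix, a process called endothelial-to-mesenchymal transition, and the fibroblast-like cells found inside the leaflet are the valve interstitial cells. Periostin is a matrix protein long used as a marker of these cells. In zebrafish the endocardium that lines the valve carries the adhesion molecule Alcama. For that reason the VIC-like cells were set beside 2 other groups of the same library. The first was all 3890 other cells, and the second was the 462 cells with at least 3 UMIs of *alcama*, no *postnb* and no place among the VIC-like cells (alcama-high cells). The alcama-high cells are also part of the 3890, so the 2 comparisons share cells on both sides.

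The VIC-like cells held from 3461 to 27241 UMIs, with a median of 7723 UMIs and 2139 genes per cell. The median was 7307.5 UMIs in the alcama-high cells and 6222.5 in all other cells. Another 343 cells outside the rule, called blood-like because they carried at least 3 of 12 listed blood genes, served as cells that should lack valve transcripts, and their median was 18677 UMIs. Of the VIC-like cells, 13 (5.53%) were among the deepest 10% of the library, and 2 met the blood-like definition. The libraries shared 4 cell barcodes, none of them carried by a VIC-like cell.

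The values of *postnb* and *col1a2* chose the cells, so they are given as a description. A cell held from 1 to 68 UMIs of *postnb* with a median of 4, and from 5 to 118 UMIs of *col1a2* with a median of 23. Pooled over the cells, *postnb* stood at 619 counts per 1000000 UMIs of the pooled cells (CPM) and *col1a2* at 3011 CPM. *postnb* carried nearly all of the choice, because 252 cells of the library had it and 235 of them passed the *col1a2* line as well. *col1a2* was far more widespread, with 1267 cells at 5 UMIs or more, of which 1032 had no *postnb*. Among the 462 alcama-high cells, 322 reached 5 UMIs of *col1a2*, so most of that group met this part of the rule.

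**Figure D1:**
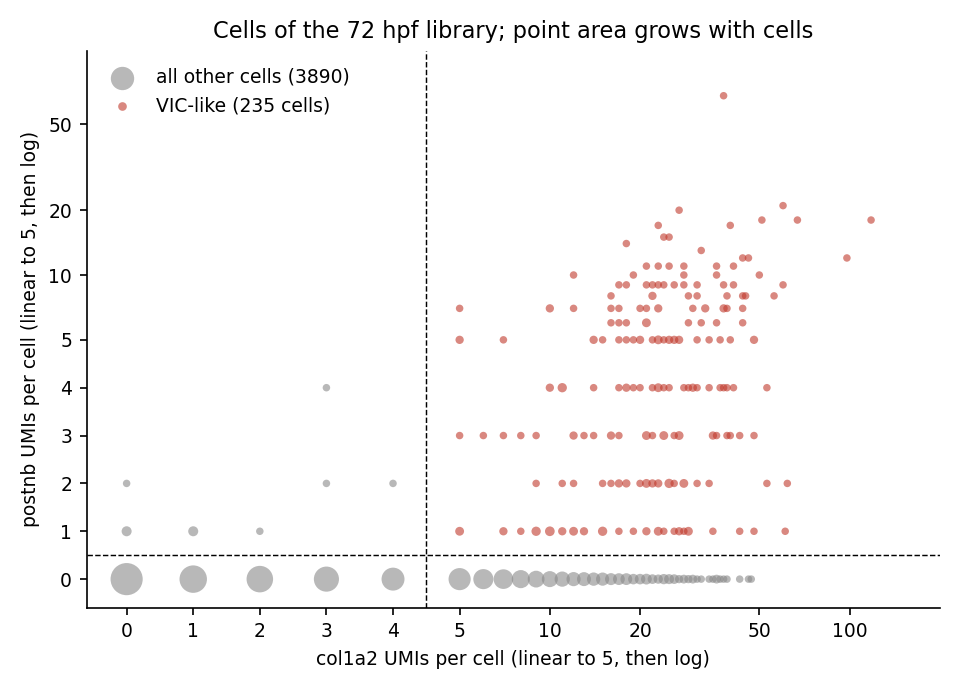
Each point is a combination of *col1a2* UMIs (horizontal axis) and *postnb* UMIs (vertical axis) found in the 72 hpf library, on axes that are linear to 5 and logarithmic above, with the point growing with the number of cells. The dashed lines mark the rule, and the 235 red VIC-like cells lie above and to the right of both, while most grey cells lie on the line of 0 *postnb*.

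Few cells lay close to the *col1a2* line. The 17 cells with *postnb* but under 5 UMIs of *col1a2* included 13 with 0 or 1 UMI and only 1 with exactly 4. Their *angptl7* level was 445 CPM and their *kdrl* level 459 CPM. The 7 VIC-like cells at exactly 5 UMIs had 589.8 CPM of *angptl7*, 421 CPM of *pcolcea* and 1159 CPM of the endothelial cadherin *cdh5*. On the *postnb* line stood 45 VIC-like cells with exactly 1 UMI. They held 601 CPM of *pcolcea* against 1091 CPM in the 190 cells with more, and 776 against 242 CPM of *cdh5*.

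The label was set beside 4 marker genes that the rule did not read. *pcolcea* (ENSDARG00000056913) encodes an enhancer of the protease that trims procollagen. It was found in 94.5% of the VIC-like cells (exact 95% interval 90.7 to 97.0%), in 6.93% of the alcama-high cells and in 1.17% of the blood-like cells. *angptl7* (ENSDARG00000027582), a secreted angiopoietin-like protein, was found in 83.0%, 6.71% and 2.04% of these groups, and *tfa* (ENSDARG00000016771), the iron carrier transferrin, in 72.3%, 9.52% and 0.875%. *rspo1* (ENSDARG00000104340), an R-spondin that amplifies Wnt signals, was rarer, at 39.1%, 1.95% and 1.46%. With each cell thinned to 3000 UMIs the shares in the VIC-like cells were 86.0% for *pcolcea*, 79.1% for *angptl7*, 64.3% for *tfa* and 20.4% for *rspo1*, and no more than 5.63% in the alcama-high cells. With 235 cells, a share of 49.8% has an exact interval of 43.2 to 56.4%, the widest that counting gives. All 4 genes were found in 70 VIC-like cells, at least 2 of them in 209, and none in 7. The 4 markers came with the rule and were chosen with earlier results of these data known, so they are no independent check of the label.

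*angptl7* was the most abundant of these 4 transcripts. A VIC-like cell held from 0 to 132 UMIs with a median of 25, and the pooled level was 3587 CPM (3504 to 3672). That was 49.2-fold (46.9 to 51.6) the level in all other cells and 18.3-fold (16.9 to 19.7) the level in the alcama-high cells. *tfa* reached 1559.9 CPM (1505 to 1616), 31.2-fold (29.4 to 33.2) the other cells and 10.5-fold (9.64 to 11.6) the alcama-high cells, and varied from 0 to 123 UMIs per cell around a median of 6. *pcolcea*, at 996 CPM (953 to 1042), was 45.9-fold (42.0 to 50.1) and 21.5-fold (18.4 to 25.2) higher. *rspo1*, at 100.5 CPM (86.9 to 116), was 42.0-fold (32.1 to 55.5) and 24.1-fold (14.5 to 43.0) higher.

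Part of the alcama-high level of these markers came from few cells. When the library was clustered, 27 alcama-high cells fell among the VIC-like cells, and they held 2871 CPM of *angptl7* against 23.8 CPM in the other 435. For *tfa* the contrast was smaller, 971 against 94.8 CPM. Without those 27 cells the log2 ratio of VIC-like to alcama-high cells went from 4.18 to 7.17 for *angptl7*, from 4.40 to 5.99 for *pcolcea*, from 4.30 to 5.11 for *rspo1* and from 3.39 to 4.03 for *tfa*. The clustering did not leave out these 4 markers, and this alternative was added after the data had been seen.

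Over the whole gene table the VIC-like cells were next compared with both groups. A gene was called higher or lower when the log2 ratio of CPM + 1 passed 1 or −1, which is a fixed size and not a test, among genes at 10 CPM or more in either group. Against all other cells, 909 of 7672 genes (11.8%) were higher and 707 (9.22%) lower. Against the alcama-high cells, 736 of 7527 genes (9.78%) were higher and 581 (7.72%) lower. The median log2 ratio over all tested genes was 0.04 in both. These shares are the background for the counts of each gene group that follows, and since the cells were chosen on expression, the counts describe the chosen cells.

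**Figure D2:**
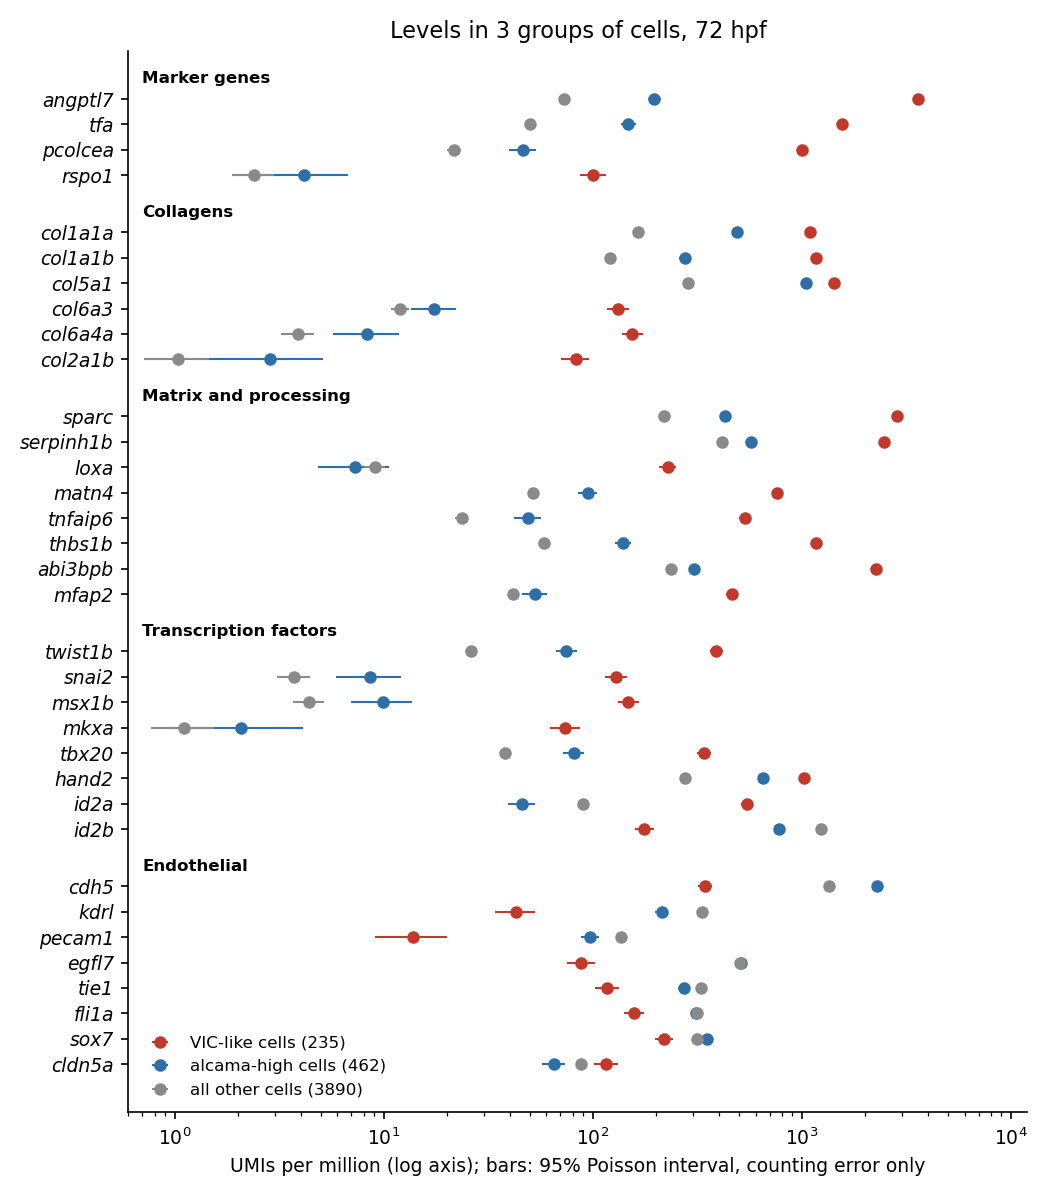
Levels of 34 genes by role, in CPM on a log axis, pooled over the VIC-like cells (red), the alcama-high cells (blue) and all other cells (grey), with bars for the 95% Poisson interval of counting error. The red points lie far to the right for the marker, matrix and most transcription factor genes and to the left for most endothelial genes. For *fli1a* and *sox7* the groups lie closer together, with the red point still to the left, and for *cldn5a* it lies slightly to the right.

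Collagen genes were among the broadest differences. The rule itself asked for *col1a2*, which rose with *col1a1b* over the VIC-like cells (Spearman rho 0.71). The collagen counts are therefore not independent of how the cells were chosen. Of 22 collagen chain genes tested beside *col1a2*, 18 were higher in the VIC-like cells than in all other cells and 2 lower (median log2 ratio 2.89), and 16 were higher and 1 lower than in the alcama-high cells (median 2.28). All listed collagen chain genes except *col1a2*, tested or not, were also summed per cell. The sum had a median of 55.7 UMIs per 10000 in a VIC-like cell (range 3.01 to 189), against 23.8 in an alcama-high cell and 11.4 in any other cell. The type I chains *col1a1a* and *col1a1b*, partners of Col1a2 in the same fibril, stood at 1099 and 1163 CPM. Both were higher than in all other cells, 6.66-fold and 9.64-fold, and less so against the alcama-high cells, 2.25-fold and 4.23-fold.

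Type V collagen, which sets the width of type I fibrils, was high in the alcama-high cells too. *col5a1* had 1431, 1047 and 285 CPM in the VIC-like, alcama-high and other cells, and *col5a2a* had 842, 563 and 165 CPM in the same order. The ratio to the alcama-high cells was 1.37-fold (1.30 to 1.43) for *col5a1* and 1.50-fold (1.40 to 1.59) for *col5a2a*, both short of the fold used for a call. Other chains set the VIC-like cells apart from both groups. *col2a1b*, a type II collagen paralog, was found in 34.5% of the VIC-like cells and 1.73% of the alcama-high cells, with 79.5-fold (54.4 to 119) the level of all other cells. The type VI chains *col6a4a* and *col6a3*, which build beaded filaments around cells, stood at 155 and 133 CPM, 18.5-fold and 7.60-fold the alcama-high level. The cartilage type II gene *col2a1a* was not among them: the 6 listed cartilage genes summed to 7.65 CPM.

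Basement membrane collagens were split by chain. *col4a1* and *col4a2*, the common type IV chains beneath endothelium, were lower in the VIC-like cells than in all other cells, at 73.4 against 233 CPM and 62.7 against 156 CPM. *col4a5* and *col4a6* were higher than in all other cells, at 37.7 against 3.65 CPM and 89.2 against 8.82 CPM. Of the 14 basement membrane genes tested, 7 were higher and 3 lower than in all other cells, and 6 were higher and 1 lower than in the alcama-high cells.

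The machinery that folds, trims and crosslinks collagen was mostly higher along with the chains. Its counts are not independent of the choice on *col1a2* either, which had a rho of 0.62 with *sparc* over the VIC-like cells. Of 24 collagen processing genes tested, 20 were higher than in all other cells and 0 lower (median log2 ratio 1.62), and 14 were higher and 1 lower than in the alcama-high cells (median 1.08). *sparc*, a collagen-binding glycoprotein, reached 2849 CPM and was found in 98.7% of the cells, 13.1-fold (12.6 to 13.5) all other cells and 6.67-fold (6.31 to 7.06) the alcama-high cells. *serpinh1b*, the collagen chaperone Hsp47, reached 2477 CPM, 5.99-fold (5.79 to 6.19) and 4.32-fold (4.11 to 4.55). The prolyl hydroxylase and lysyl hydroxylase genes differed less, for example *plod2* with 37.2, 24.2 and 17.7 CPM and *p4ha2* with 54.1, 26.8 and 14.0 CPM in the 3 groups.

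Genes for lysyl oxidases, the enzymes that crosslink collagen and elastin, did not behave alike. *loxa* had 228 CPM in the VIC-like cells, 7.29 in the alcama-high cells and 9.07 in all other cells, yet only 38.3% of the VIC-like cells held a UMI. Its log2 ratio to the alcama-high cells was 4.79, and 4.29 without 7 VIC-like cells rich in *acta2*, an alternative added after the data had been seen. *loxl2b* was higher than in both groups, with 87.2, 26.6 and 7.90 CPM. *loxl2a* was the 1 gene of the list below the alcama-high cells, with 30.1 against 74.2 CPM.

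Among matrix genes beyond the collagens, 19 of 26 tested genes of elastic fibres and matricellular proteins were higher than in all other cells and 3 lower (median log2 ratio 2.50), and 21 of 27 were higher and 4 lower than in the alcama-high cells (median 2.58). *abi3bpb*, a gene for a secreted Abi3bp matrix protein, was at 2258 CPM and *thbs1b*, a thrombospondin, at 1162 CPM. Their ratios to the alcama-high cells were 7.40-fold (6.94 to 7.90) and 8.36-fold (7.60 to 9.20). *fibinb* (825 CPM), *mxra8b* (528 CPM) and *mfap2*, a microfibril protein (465 CPM), were found in 92.3%, 88.5% and 87.2% of the VIC-like cells. *postna*, the paralog of the gene used to choose the cells, was less restricted, with 425, 156 and 89.6 CPM in the VIC-like, alcama-high and other cells.

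Some matricellular genes ran the other way. *spp1*, the osteopontin gene, was found in 53.0% of the alcama-high cells and in 2.98% of the VIC-like cells, 1202 against 12.2 CPM, the largest difference in that direction among the named genes. *efemp2b*, a fibulin, had 3 UMIs in all VIC-like cells together and 103 CPM in the alcama-high cells. Fibronectin *fn1a* was close between the groups, with 612 and 547 CPM.

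Of 15 tested genes for proteoglycans and hyaluronan, 10 were higher and 2 lower than in all other cells, and 7 were higher and 2 lower than in the alcama-high cells. *matn4*, a matrilin that links matrix filaments, was found in 88.1% of the VIC-like cells at 762 CPM, 8.04-fold (7.17 to 9.04) the alcama-high level. *tnfaip6*, whose product binds hyaluronan, was found in 82.6% at 534 CPM, 11.0-fold (9.38 to 12.9). *has2*, the enzyme that makes hyaluronan in the cushions, was lower than in the alcama-high cells, 88.7 against 233 CPM. The versican genes parted, since *vcana* was lower than in the alcama-high cells (36.2 against 95.6 CPM) and *vcanb* higher (55.6 against 9.12 CPM). The small leucine-rich proteoglycans *fmoda* (fibromodulin) and *lum* (lumican) were both at 64.3 CPM, against 1.30 and 2.34 CPM in the alcama-high cells, and were found in 22.6% and 17.9% of the VIC-like cells. Of the *lum* UMIs, 42.9% came from 2 cells.

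Transcription factor genes known from valve formation and mesenchyme showed 19 of 28 higher than in all other cells and 3 lower (median log2 ratio 1.64), and 15 of 27 higher and 3 lower than in the alcama-high cells (median 1.06). *twist1b*, a factor of mesenchymal transition, was found in 73.6% of the VIC-like cells, 21.4% of the alcama-high cells and 0.583% of the blood-like cells, at 389.6 CPM and 5.21-fold (4.54 to 5.99) the alcama-high level. *snai2*, a repressor of cadherin genes, was found in 55.3% and 4.55%, at 129.5 and 8.60 CPM. *msx1b*, a homeobox gene of cushion mesenchyme in the mouse, was found in 47.7% and 4.98%, with 14.9-fold (10.6 to 21.5). *mkxa*, the Mohawk factor of tendon cells, was found in 40.0% and 1.30%, with 35.5-fold (17.5 to 83.8).

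The other snail and zeb genes were not raised in the same way. *snai1b* had 53.5, 30.2 and 9.32 CPM in the 3 groups, so it passed the fold against all other cells and not against the alcama-high cells, and *snai1a* (17.8, 17.2 and 19.9 CPM) and *zeb1b* (36.2, 28.4 and 27.5 CPM) passed neither. The cardiac factors *tbx20* and *hand2* were widespread in the VIC-like cells, in 78.7% and 95.3%. *tbx20* was 4.22-fold (3.68 to 4.84) the alcama-high level, while *hand2*, at 1029 CPM, was 1.59-fold (1.50 to 1.68) that level and short of the call. *sox9a* and *sox9b*, factors of matrix-producing cells, had 57.1 and 58.6 CPM and were each found in under 35% of the cells, while *nfatc1*, a classical gene of valve endocardium, was nearly level at 64.8, 68.0 and 50.9 CPM.

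The Id genes, whose products block basic helix-loop-helix factors and which respond to BMP, parted by paralog. *id1*, *id2a* and *id3* were higher than in both groups, at 384, 546 and 694 CPM, 5.28-fold, 11.9-fold and 5.71-fold the alcama-high level. *id2b* was lower than in both, at 176 CPM against 774 in the alcama-high cells and 1239 in all other cells. Its ratio was 7.02-fold (6.32 to 7.83) in favour of all other cells.

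Endothelial genes were lower in the VIC-like cells. Of 39 endothelial genes tested, 30 were lower than in all other cells and 0 higher (median log2 ratio -1.97), and 29 of 36 were lower and 0 higher than in the alcama-high cells (median -1.96). The summed count of the list had a median of 22.8 UMIs per 10000 in a VIC-like cell, 159 in an alcama-high cell and 138 in the others. It ranged from 0.732 to 293 among the VIC-like cells, and its upper quartile of 35.7 lay below the lower quartile of 121 in the alcama-high cells. *kdrl*, the gene whose promoter drove the sorted reporter, was found in 15.7% of the VIC-like cells at 42.8 CPM, against 56.5% of all other cells at 331 CPM. *pecam1*, an endothelial junction gene, was found in 6.38% against 47.0%, and *cdh5* in 38.3% against 90.1%, with 3.93-fold (3.64 to 4.25) more in all other cells and 6.66-fold (6.16 to 7.21) more in the alcama-high cells.

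The endothelial genes that were not called include transcription factors. *fli1a*, an ETS factor of endothelial identity, was found in 65.5% of the VIC-like cells with 158, 312 and 313 CPM in the 3 groups. *sox7*, a SoxF factor, was found in 65.1% with 219, 352 and 315 CPM. *clec14a*, a surface lectin, had 153, 302 and 287 CPM, and the tight junction gene *cldn5a* was slightly higher in the VIC-like cells, with 116, 64.9 and 87.6 CPM. These 4 genes fell short of the fold in both comparisons, *fli1a* and *clec14a* only narrowly. In the 145 VIC-like cells without *cdh5*, the levels of *fli1a*, *sox7* and *clec14a* were lower, at 116, 168 and 83.4 CPM. By contrast, *etv2* (6.63 against 73.6 CPM) and *lmo2* (22.4 against 189 CPM), early regulators of endothelial and blood fate, were lower than in all other cells.

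The genes with the largest log2 ratios against the VIC-like cells in all other cells included endothelial receptor and junction genes. *lrrc15* had 2 UMIs in the VIC-like cells together, against 66.0 CPM elsewhere. *ace*, angiotensin-converting enzyme, stood at 2.55 against 65.2 CPM. *gpr182*, an endothelial receptor, had 10.7 against 180 CPM, *cldn5b* 11.7 against 163 CPM, and *sele*, E-selectin, 50.0 against 490.1 CPM. *tmem88a*, an inhibitor of Wnt signalling, was found in 13.6% of the VIC-like cells and 67.0% of all other cells.

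Genes of the valve endocardium were split against all other cells, with a median log2 ratio of 0.34, and were mostly lower than in the alcama-high cells. Of 17 tested, 5 were higher and 5 lower than in all other cells, while 1 was higher and 11 lower than in the alcama-high cells (median log2 ratio -1.83). *crip1*, a LIM protein gene, had 113, 3948 and 746 CPM in the VIC-like, alcama-high and other cells, and *hey2*, a Notch target, had 54.1, 328 and 72.6 CPM. The 1 gene higher in the VIC-like cells was *bmp4*, with 104 against 39.3 CPM. *alcama* itself was found in 61.3% of the VIC-like cells, in 66 of them with 3 UMIs or more.

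Several signalling genes had a ligand or enzyme on one side and its partner on the other. These pairs were set side by side after their values had been seen. Neuregulin signals through ErbB receptors: *nrg1* was found in 50.2% of the alcama-high cells and 5.53% of the VIC-like cells, while its receptor gene *erbb3a* was found in 3.68% and 29.8%. The levels were 452 and 24.5 CPM for *nrg1*, 18.5-fold (13.9 to 25.1) higher in the alcama-high cells, and 5.21 and 54.6 CPM for *erbb3a*, 10.5-fold (6.46 to 17.8) higher in the VIC-like cells. The receptor genes *erbb3b*, *erbb4a* and *erbb4b* had no UMI in the VIC-like cells. The angiopoietin pair was arranged the other way round, with the ligand gene *angpt1* in 70.6% of the VIC-like cells and 9.96% of the alcama-high cells, and the receptor gene *tek* in 5.11% and 27.3%. *angpt1* was 9.40-fold (7.33 to 12.2) higher in the VIC-like cells and *tek* 5.79-fold (3.41 to 10.6) higher in the alcama-high cells.

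**Figure D3:**
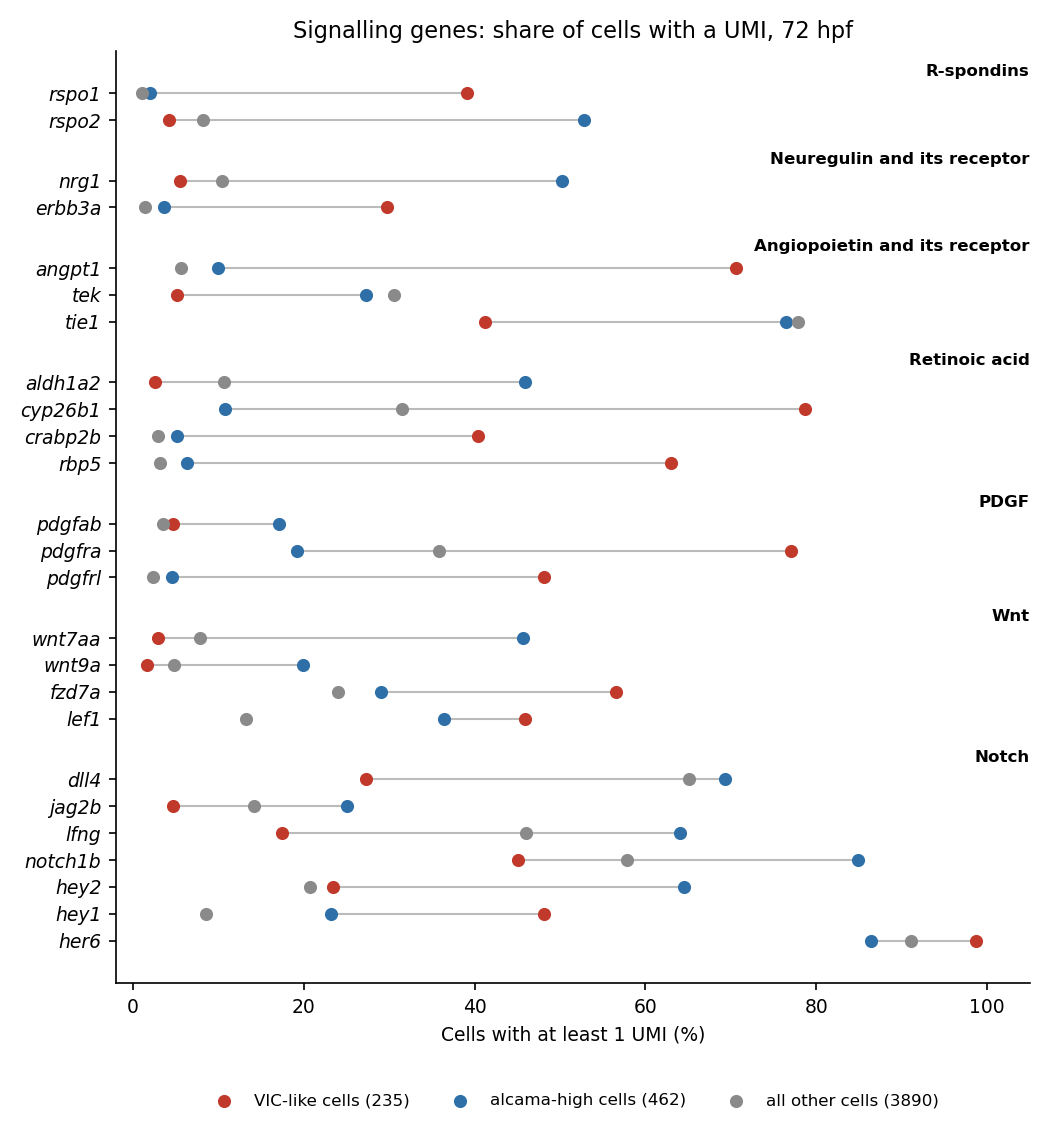
Share of cells with at least 1 UMI (horizontal axis, %) for 25 signalling genes in the VIC-like cells (red), the alcama-high cells (blue) and all other cells (grey), with a line joining red and blue. Within each of the R-spondin, neuregulin, angiopoietin and retinoic acid groups the red point is to the right for some genes and to the left for their partners, for example 39.1% for *rspo1* and 4.26% for *rspo2*.

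R-spondins parted between paralogs. *rspo1* was found in 39.1% of the VIC-like cells and 1.95% of the alcama-high cells, and *rspo2* in 4.26% and 52.8%. The level of *rspo2* was 13.3 against 449.6 CPM, 33.9-fold (23.1 to 52.1) higher in the alcama-high cells. Their receptor gene *lgr4* was low in both, at 11.7 and 20.1 CPM.

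Over the Wnt list, 10 of 22 tested genes were higher and 1 lower than in all other cells, and 7 of 24 were higher and 3 lower than in the alcama-high cells. Ligand genes were among the lower ones: *wnt9a* had 2.04 against 39.1 CPM in the alcama-high cells, and *wnt7aa*, which was named for its ratio and was not on the list, 6.63 against 176 CPM. On the receiving side, the receptor gene *fzd7a* (119 against 43.2 CPM) and *ctnnb1*, β-catenin (599 against 254 CPM), were higher, and *lef1*, a nuclear partner of β-catenin, passed the fold against all other cells alone (98.4, 61.7 and 22.6 CPM in the 3 groups). *axin2*, a general target of the pathway, was level at 31.1, 37.2 and 21.3 CPM.

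Genes that handle retinoic acid, a signal made from vitamin A, were divided as well. *aldh1a2*, the enzyme that makes it, was found in 45.9% of the alcama-high cells and 2.55% of the VIC-like cells, 38.9-fold (20.4 to 85.4) higher in the former. *cyp26b1*, an enzyme that breaks it down, was at 716 CPM in the VIC-like cells and 64.6 in the alcama-high cells, 11.1-fold (9.68 to 12.7). The binding protein genes *crabp2b* and *rbp5* were found in 40.4% and 63.0% of the VIC-like cells, 8.99-fold and 13.5-fold the alcama-high level. *cyp26b1* and *crabp2b* were singled out after their values had been seen.

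Growth factor and receptor genes were mostly higher, 19 of 36 tested against 7 lower, with the same counts in both comparisons. The receptor gene *pdgfra*, a marker of mesenchyme, was found in 77.0% of the VIC-like cells and 19.3% of the alcama-high cells, 5.51-fold (4.64 to 6.57). *pdgfrl*, a receptor-like secreted protein gene, was found in 48.1% and 4.55%. The ligand genes *pdgfaa* and *pdgfab* were low, and *pdgfab* was at 6.12 CPM against 27.3 in the alcama-high cells. *fgfr4* (175 against 41.9 CPM) and the midkine genes *mdka* (177 against 69.0 CPM) and *mdkb* (64.8 against 2.08 CPM) were higher, and the related *ptn*, pleiotrophin, was lower (82.1 against 283 CPM).

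For TGF-β and BMP signalling, 13 of 30 tested genes were higher and 3 lower than in all other cells, and 10 of 29 were higher and 4 lower than in the alcama-high cells. The higher genes included inhibitors. *smad6a* and *smad6b*, which restrain BMP receptors, had 93.3 and 198 CPM, 6.51-fold and 3.39-fold the alcama-high level, *fstl3* had 214 CPM (3.43-fold), and the BMP antagonist gene *nog2* had 21.9 CPM in 9.79% of the cells. The type II TGF-β receptor gene *tgfbr2b* had 133, 79.7 and 78.6 CPM, and *tgfb3* 41.8, 52.9 and 34.6 CPM, neither past the fold. *bmp6* was lower, at 10.2 against 69.0 CPM.

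In the Notch pathway the *notch1* receptor genes and *dll4* were lower than in the alcama-high cells, and the target genes were mixed. Of 14 tested genes, 5 were higher and 6 lower than in all other cells, and of 13, 2 were higher and 7 lower than in the alcama-high cells. *notch1b* had 99.9 against 407 CPM in the alcama-high cells, *dll4* 68.8 against 272 CPM, and *lfng*, which modifies Notch, 37.7 against 239.6 CPM. The 2 genes above the alcama-high cells were target genes. *her6*, a hairy-related repressor, reached 8194 CPM, 4.78-fold (4.64 to 4.92) the alcama-high level and 3.89-fold (3.82 to 3.96) the level of all other cells, and was in 98.7% of the VIC-like cells, with a median of 63 UMIs per cell. *hey1* had 136 CPM, 3.43-fold (2.80 to 4.21), while its relative *hey2* was lower, at 54.1 against 328 CPM.

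Adhesion, protease and secreted genes completed the profile. *cdh11*, the mesenchymal cadherin, was found in 71.1% of the VIC-like cells at 221 CPM, 5.50-fold (4.57 to 6.66) the alcama-high level, and *cdh2* passed the fold against all other cells alone, with 96.9, 49.7 and 19.7 CPM. The intermediate filament gene *vim* was found in 20.4% and 4.33%. Of 31 adhesion and cytoskeleton genes tested, 17 were higher and 3 lower than in all other cells, and 12 were higher and 5 lower than in the alcama-high cells. Of the protease genes and their inhibitors, 9 of 10 were higher than in all other cells, and 5 of 11 higher and 1 lower than in the alcama-high cells. *cpz*, a carboxypeptidase with a Wnt-binding domain, was at 278 CPM (9.06-fold), and *mmel1*, a membrane metalloprotease named for its ratio to all other cells, at 445 CPM in 76.6% of the cells. *mmp2* (66.3 against 10.4 CPM) and *mmp14a* (119.8 against 25.3 CPM), matrix metalloproteases of which Mmp14 activates Mmp2, were both higher. Of 11 secreted and iron-handling genes, 9 were higher in either comparison, among them *f3b*, tissue factor, at 1115 CPM, 8.65-fold (7.84 to 9.55) the alcama-high level.

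A call over pooled counts can rest on very few cells. Among the listed genes called higher, 9 were found in under 5% of the VIC-like cells: *fn1b*, *sfrp2*, *rbp4*, *acta2*, *apoeb*, *htra1a*, *elnb*, *ptgdsb.1* and *col18a1a*. Leaving them out would lower the counts of the lists that hold them, and the first 8 are described with the rare cells. The 5% line does not catch every gene concentrated in few cells. *fbln5* was found in 20 cells, with 90.6% of its UMIs in 7 of them. *tagln* stood at 508 CPM in the 7 cells rich in *acta2* and at 5.27 CPM in the other 228.

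Markers of other cell types were looked for in the VIC-like cells. Blood markers were near absent, at 12.2 CPM summed over 12 genes against 5147 CPM in the blood-like cells, with *mpx* and *lcp1* at 0 UMIs, which allows up to 1.53 CPM (3 counts over the group). The 4 epicardial genes summed to 11.2 CPM, the 5 neural crest genes to 8.67 CPM and the 6 cartilage genes to 7.65 CPM. The same sums were 2.08, 0.535 and 9.57 CPM in all other cells. In the alcama-high cells they were 0, 0.260 and 2.08 CPM. At least 2 genes of the list were found in 2, 1 and 1 VIC-like cells respectively. The 4 tendon genes summed to 89.7 CPM, against 7.81 CPM in the alcama-high cells and 4.19 CPM in all other cells. Of the 89.7 CPM, *mkxa* gave 73.9, and 8 VIC-like cells held at least 2 of the 4 genes.

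Cardiomyocyte transcripts were uneven. The 9 listed genes summed to 369 CPM in the VIC-like cells, 755 in the alcama-high cells, 167 in all other cells and 2.27 in the blood-like cells. *myl7*, a cardiac myosin light chain gene, was found in 62.1% of the VIC-like cells, 5.41% of the alcama-high cells and 0.292% of the blood-like cells, or 37.9%, 3.68% and 0% with cells thinned to 3000 UMIs. The level was 241, 34.4 and 19.6 CPM in the VIC-like, alcama-high and other cells. Of 3 tested genes of the list, 2 were higher than in all other cells and 0 lower. Of 6 tested, 2 were higher and 4 lower than in the alcama-high cells. *myl7* was 1 of the 2 in both comparisons, and the titin gene *ttn.2* was the other. The remaining sarcomere genes of the list did not follow them. *tnnt2a*, cardiac troponin T, had 99.4, 662 and 129 CPM in the same order, *cmlc1* had 3 UMIs in the VIC-like cells, *tnni1b* had 4, and *tnnc1a*, *myh6* and *mybpc3* were at 0, with the same limit. The ratio of *myl7* to *tnnt2a* thus differed between the groups, and free RNA from cardiomyocytes was not measured separately.

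The smooth muscle and mural list summed to 301 CPM, against 103 in the alcama-high cells and 38.8 in the blood-like cells, and 44 VIC-like cells (18.7%) held at least 2 of its genes. Of 6 tested genes of the list, 6 were higher than in all other cells (median log2 ratio 2.74). Against the alcama-high cells, 5 of the 6 were higher and 0 lower (median 2.57). Most of the summed level came from *myh11a* (99.4 CPM in 33.2% of the cells) and *acta2* (93.3 CPM in only 9 cells). In the 228 VIC-like cells with under 10 UMIs of *acta2*, *acta2*, *elnb* and *tagln* stood at 1.05, 5.27 and 5.27 CPM. These levels lie below the 10 CPM of the filter, so the calls of these genes as higher rested on the other 7 cells. Without the 7 cells that held 10 or more UMIs of *acta2*, 898 genes were higher and 702 lower than in all other cells, and 733 higher and 589 lower than in the alcama-high cells. The part of these markers in the other results was not tested beyond that.

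No listed cell cycle gene passed the fold against all other cells, while some S phase genes did against the alcama-high cells. Of 23 S phase genes tested, 0 were called in either direction against all other cells, and of 29 G2 and M phase genes, 0 were called in either comparison. Against the alcama-high cells, 5 of 22 S phase genes were higher and 0 lower (median log2 ratio 0.81), where 9.78% of all tested genes were higher. The S phase genes summed to 1395 CPM in the VIC-like cells and 864 CPM in the alcama-high cells. The summed S phase count had a median of 2.67 UMIs per 10000 in a VIC-like cell, 1.84 in an alcama-high cell and 2.79 in the others, and reached 108 in single VIC-like cells.

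The VIC-like cells were then grouped without the genes that had chosen them. The library was clustered with *postnb* and *col1a2* left out of the variable genes. The 4 marker genes were not left out, nor were genes that varied with *col1a2*, such as *col1a1b* (rho 0.71) and *sparc* (0.62). The grouping is therefore not independent of how the cells were chosen. Of 13 clusters, 1 cluster of 325 cells held 211 of the 235 VIC-like cells (89.8%), and VIC-like cells made up 64.9% of it. The other 114 cells of that cluster were much like them: 99 had no *postnb* but at least 5 UMIs of *col1a2*. These 114 cells had 2481 CPM of *angptl7*, 594 CPM of *pcolcea* and 592 CPM of *cdh5*, against 3972, 1073 and 222 CPM in the 211. All 114 were counted among the other cells above, so part of the marker level there belongs to them.

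The 24 VIC-like cells outside the cluster were deeper and less marked. Their median was 11547.5 UMIs, and they held 1435 CPM of *angptl7*, 569 CPM of *pcolcea* and 1034 CPM of *cdh5*. Of them, 16 lay in a cluster of 302 cells in which G2 and M phase genes summed to 14919.9 CPM. In the 16 cells themselves that sum was 16732 CPM, against 1398 CPM in the 211, and their median depth was 12592 UMIs. The remaining 8 were spread over 5 clusters. With the 211 cells alone, 949 genes were higher and 856 lower than in all other cells.

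Endothelial genes varied among the VIC-like cells. *cdh5* was absent from 145 cells, found with 1 or 2 UMIs in 34 and with 3 or more in 56, and the median depth of these classes was 7159, 7671 and 9365 UMIs. Along this order the collagen-processing genes *pcolcea* and *sparc* were lower: *pcolcea* had 1293, 798 and 539 CPM and *sparc* 3426, 2915 and 1733 CPM. The genes of the rule were lower too, *postnb* at 796, 483 and 355 CPM and *col1a2* at 3564, 2808 and 2074 CPM. Other genes did not fall step by step: *matn4* had 735, 922 and 733 CPM and *angptl7* 4213, 4206 and 2105 CPM. *msx1b* had 214, 82.9 and 56.8 CPM. *kdrl* had 9.17, 17.3 and 119 CPM, *f8*, coagulation factor VIII, 22.0, 44.9 and 377 CPM, and *id2b* 44.9, 62.2 and 480.2 CPM.

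Endothelial transcription factors differed less between these classes. *sox7* had 168 CPM in the cells without *cdh5* and 313 CPM in those with 3 or more, and *fli1a* 116 and 249.6 CPM. In the cells without *cdh5*, *fli1a* was found in 58.6% and *kdrl* in 6.90%. *f8* was picked after its values had been seen. A cell with both programmes can be 1 cell or a pair of cells in 1 droplet, and these cannot be told apart in a single library. Doublets were not removed here. Restricted to the 145 cells without *cdh5*, 1076 genes were higher and 922 lower than in all other cells.

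**Figure D4:**
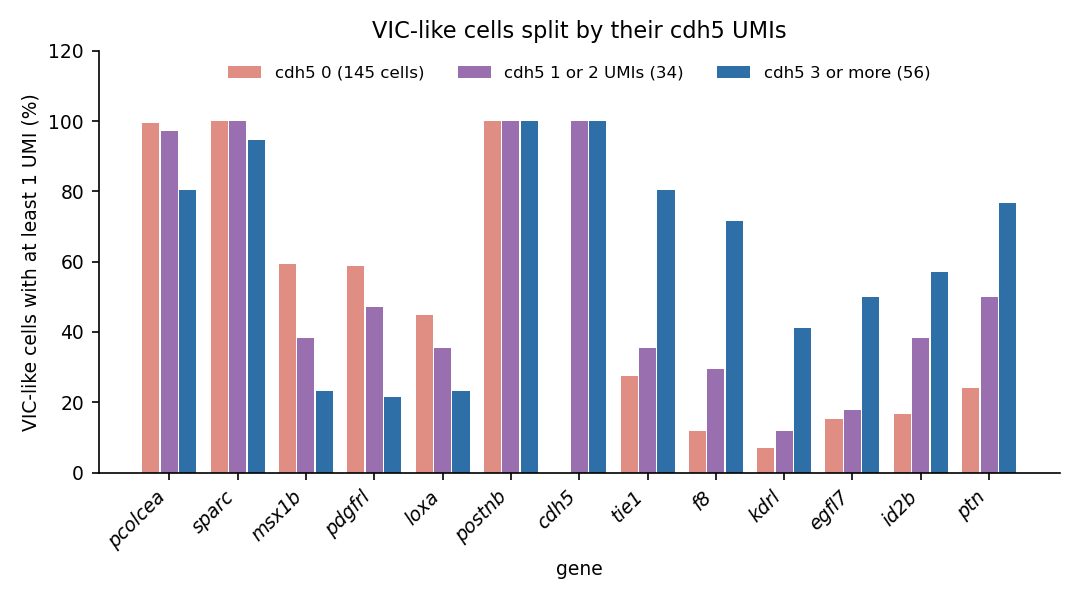
Share of VIC-like cells with at least 1 UMI (vertical axis, %) for 13 genes, in bars for cells with no *cdh5* UMI, 1 or 2, and 3 or more. The bars for *tie1*, *f8*, *kdrl*, *egfl7* and *id2b* grow with the *cdh5* class, those for *msx1b* and *pdgfrl* shrink, and *pcolcea* and *sparc* stay high in all 3 classes although their levels were lower.

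Rank correlations over the 235 cells, in UMIs per 10000, describe which genes varied together, and the cells share 1 library and differ in depth. *cdh5* correlated with *f8* (Spearman rho 0.58) and *tie1* (0.44), and inversely with *pcolcea* (-0.52) and *sparc* (-0.40). Its own rho with the UMIs per cell was 0.29. The rho of *col1a2* was 0.71 with *col1a1b* and 0.62 with *sparc*, over cells chosen for at least 5 UMIs of *col1a2*. *thbs1b* and *fibinb* went together at 0.61.

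A further group formed around transferrin. *tfa* correlated with *tnfaip6* (0.54), *matn4* (0.49) and *cyp26b1* (0.47). *loxa* correlated with the smooth muscle myosin gene *myh11a* (0.48) and the LIM protein gene *fhl2a* (0.39), and weakly inversely with *matn4* (-0.30) and *tfa* (-0.22). Of the 90 cells with *loxa*, 61.1% also held *tfa*, against 79.3% of the 145 cells without it. The cells with *loxa* had 186 CPM of *myh11a*, 277 of *fhl2a*, 262 of *pdgfrl* and 577 of *matn4*, and the cells without it 41.6, 74.7, 109.5 and 886 CPM. The median depth of the 2 classes was 8036.5 and 7479 UMIs. The 7 VIC-like cells rich in *acta2* held 2269.8 CPM of *loxa*, 619 of *myh11a* and no *tfa*. The other 228 held 161, 82.2 and 1612 CPM. The correlations and class levels were not recomputed without the 7 cells.

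**Figure D5:**
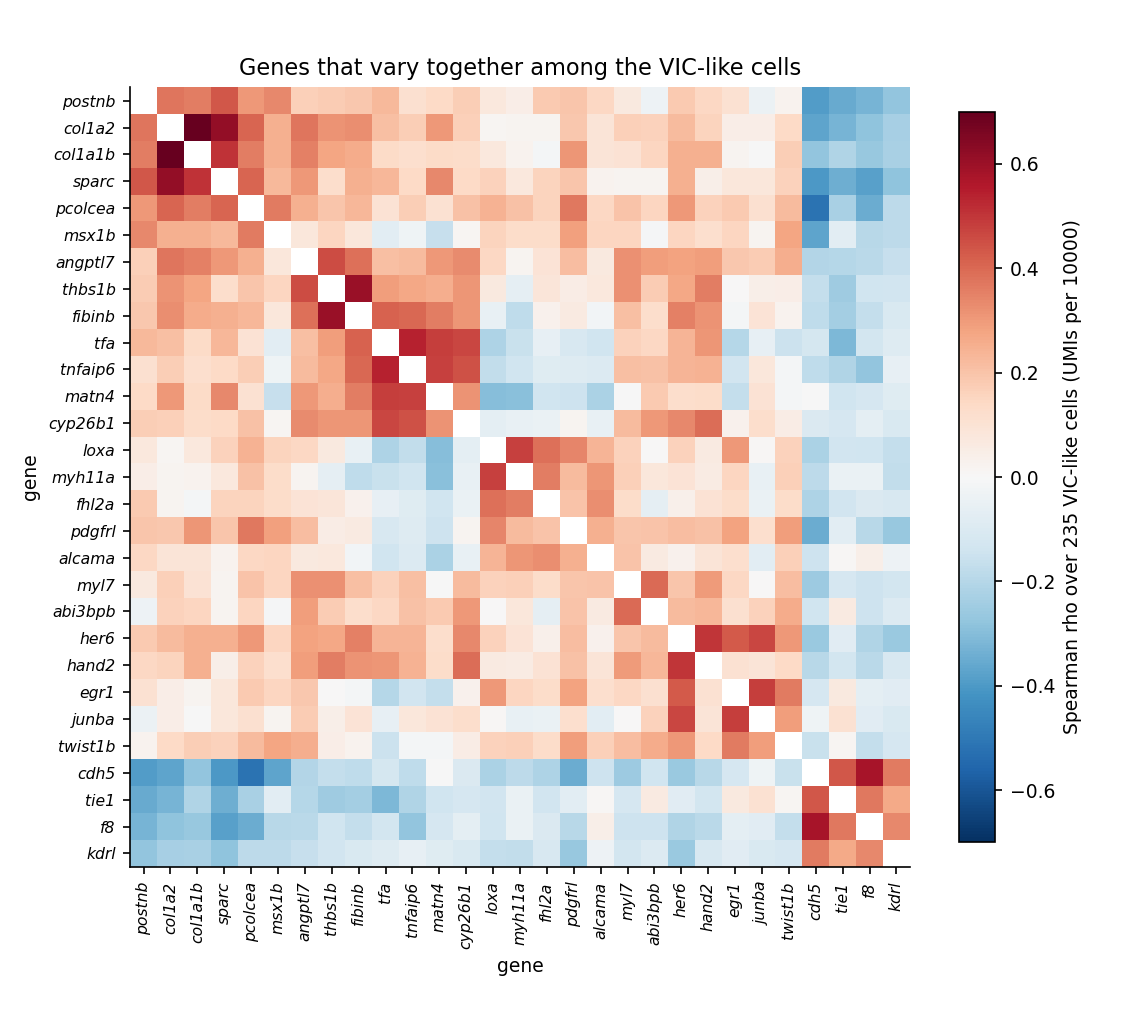
Spearman rho between 29 genes over the 235 VIC-like cells (both axes list the genes; red is positive, blue negative, and the diagonal is left blank). Red blocks join *col1a2* with *col1a1b* (0.71) and *sparc*, *tfa* with *tnfaip6* (0.54) and *matn4*, and *cdh5* with *tie1* and *f8* (0.58), and the cells linking *cdh5* with *pcolcea* are blue (−0.52).

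Immediate early genes, which switch on within minutes of a stimulus and also during dissociation of tissue, varied across the cells as well. *egr1* and *fosab* had a rho of 0.62, and *her6* went with *hand2* (0.50) and *junba* (0.46). The 3 immediate early genes were picked after their values had been seen. The part of tissue dissociation in the *her6* level was not tested.

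A handful of VIC-like cells stood apart by *acta2*, the smooth muscle actin gene. With 10 UMIs or more in 7 cells, *acta2* averaged 2873 CPM there and 1.05 CPM in the other 228. The transgelin gene *tagln* and *myh11a* were found in all 7, and *fbln5* and *elnb*, which build elastic fibres, in 6 of 7. *fbln5* stood at 5698 against 35.8 CPM and *loxa* at 2269.8 against 161 CPM. *angptl7* was found in 1 of the 7 and *tfa* and *cdh5* in none, whereas *pcolcea* was found in all 7. Their median depth was 8492 UMIs, and *postnb* stood at 460.3 CPM. They were picked after their values had been seen, and no name is given to them.

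Other transcripts were even more concentrated. Of 667 *rbp4* UMIs (retinol-binding protein) in the VIC-like cells, 96.9% were in 2 cells, and the VIC-like cells held 96.7% of the library's *rbp4*. The 435 UMIs of *ptgdsb.1* were in 2 cells, and 97.0% of the *apoeb* UMIs were in 2. *fn1b* was found in 11 cells, with 74.0% of its UMIs in 2, and *htra1a* and *sfrp2* in 9 and 7 cells.

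At 48 hpf the same rule took 8 of 2665 cells (0.30%, exact interval 0.130 to 0.591%), although 560 cells had at least 5 UMIs of *col1a2* and 38 had *postnb*. These 8 cells had a median of 13480 UMIs, above that of the 72 hpf cells. The whole 48 hpf library was deeper too, with a median of 10411 UMIs against 6316 at 72 hpf. The rule reads raw UMIs, so it was applied at unlike depth. *pcolcea*, *angptl7*, *tfa* and *twist1b* were each found in 1 of the 8, *rspo1* and *snai2* in none, and only 1 cell held at least 2 of the 4 marker genes. *cdh5* was found in 7 of 8 at 1307 CPM, and *fli1a*, *sox7* and *icn* in all 8. In the whole 48 hpf library 4 cells held at least 2 of the 4 markers, against 318 of 4125 cells at 72 hpf, and 209 of those 318 were VIC-like cells by the rule. Age and library coincide, so a difference of age and a difference of library cannot be told apart.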

How the data were processed

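For either library the authors deposited a matrix of UMI counts, not normalized. The submitters' processing notes name STARsolo, Scanpy and danRer11 without versions. All values were whole numbers. The table lists 32057 genes, of which 546 symbols are shared by several entries; genes are named here by symbol, and no coordinates or sequences were used.

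Cells were chosen on raw UMIs of *postnb* and *col1a2*. The rule, the marker genes and the gene lists were chosen with earlier results of these data known. UMIs were pooled per group and divided by the group's total (CPM). Log2 ratios were taken of CPM + 1, and calls needed 10 CPM in either group and left out *postnb* and *col1a2* (also *alcama* where it defined a group). CPM carry exact Poisson, shares Clopper-Pearson and ratios exact conditional 95% intervals. Cells of the 72 hpf library were thinned to 3000 UMIs, and none of them had fewer. With 1 library per age no test was run, and doublets were not called or removed. Genes named are the given markers, the listed genes and the 20 largest log2 ratios each way among genes in at least 25% of the cells and at 50 CPM or more in the higher group; others are said to have been picked later. Clustering used 2000 variable genes, 30 components, 15 neighbours, Leiden resolution 0.6 and seed 0. Tools were Python 3.11, numpy 2.4.6, scipy 1.17.1, pandas 2.3.3, scanpy 1.11.5, anndata 0.12.19, leidenalg 0.10.2, igraph 0.11.9 and matplotlib 3.10.9. The calls and intervals were tested on simulated Poisson counts, the same model that the intervals assume. The simulation held no spread between cells and no choice of cells on expression, so it cannot speak to either. Alternatives changed the rule, the compared cells, pooling, pseudocount, filter, scaling and resolution.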

Additional observations from a re-analysis of the deposited data

How the results depend on the processing

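The rule took 190 cells with at least 2 *postnb* UMIs, 161 after thinning to 3000 UMIs, and 318 when at least 2 of *angptl7*, *tfa*, *pcolcea* and *rspo1* replaced it (209 shared). With a pseudocount of 10 CPM, 551 genes were higher and 397 lower than in all other cells, and 427 higher and 346 lower than in the alcama-high cells. With no filter on low values these counts were 1681 and 1521 of 22993 genes, and 1846 and 1323 of 19024. Every other alternative kept all 4 counts within 1.5 times. Close to that limit was the comparison with the 140 alcama-high cells under 5 UMIs of *col1a2*. There 1095 genes were higher, against 736 in the main setting. At a resolution of 1.0 the cluster held 196 of the VIC-like cells. For 51 named genes, 1275 log2 ratios were recomputed and 0 reversed. Dropping the filter does not alter a ratio, so under that alternative the recomputed ratios equal the main ones by construction. A reversal could be counted only for genes past the fold in the main setting, 44 against all other cells and 47 against the alcama-high cells. The alternatives on *cdh5*, *acta2*, clusters and resolution were chosen after seeing the data. No paired analysis was possible because there is 1 library per age. Low genes are limited by depth, and the intervals do not cover variation between hearts or libraries.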
